A study of Mus musculus and Homo sapiens with 32 samples.

Results

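The 31 genes described here encode enzymes and regulators of cholesterol and fatty acid synthesis, most of them targets of the sterol regulatory element binding proteins (SREBPs). They were taken by gene symbol from a table of read counts for mouse kidney that lists 57180 genes. By role, 7 belong to the mevalonate and isoprenoid arm, 11 to the arm from squalene to sterols, 6 are regulators of SREBP activity or sterol transfer proteins, and 7 make or modify fatty acids. The first 18 are called sterol synthesis genes below. All 31 passed the filter on low counts and were tested among 19256 genes. The kidneys came from mice with floxed Pcmt1 alleles (Pcmt1 fl/fl) or labelled Pcmt1 tKO, and Pcmt1 encodes an enzyme that repairs damaged aspartyl residues in proteins. The labels do not spell out tKO, and the driver of the deletion, the age of the mice and the time after surgery are not given in the sources used here. Each genotype had 3 groups of 3 libraries. These were sham surgery with DMSO, tying off of 1 ureter (UUO, unilateral obstruction, which leads to fibrosis) with DMSO, and UUO with LY2109761, an inhibitor of TGF-β receptor kinases.

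Cells make cholesterol from acetyl-CoA through mevalonate, farnesyl diphosphate, squalene and lanosterol, and fatty acids from the same precursor through malonyl-CoA. When sterols in the endoplasmic reticulum run low, the escort protein Scap carries SREBPs to the Golgi, where proteases release the part that enters the nucleus and switches on these genes, and Insig proteins hold Scap back when sterols are plentiful. Srebf2 gives the form that acts mainly on sterol genes, and Srebf1 gives forms that act mainly on fatty acid genes. In the kidney these pathways supply membranes of tubule cells, and tubules also take up lipids from the blood and the filtrate.

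Library depth was 13015669 to 19565376 counts. Whether the replicates of a group are different animals is not stated in the labels, and the p-values therefore reflect the spread among these libraries, possibly a technical one. Mitochondrially encoded genes took 30.8% to 35.5% of the counts in fl/fl sham, 33.7% to 69.5% in tKO sham, 7.43% to 7.67% in fl/fl UUO, 9.88% to 16.2% in tKO UUO and 12.2% to 18.8% with LY2109761. Levels are therefore given as CPM (counts scaled to library size) on library sizes adjusted by TMM, which sets each gene against the bulk of expressed genes. The library labelled tKO sham replicate 1 went against its label, with Pcmt1 at 49.3 CPM, where the fl/fl sham libraries ranged from 42.8 to 49.0 CPM, whereas tKO sham replicates 2 and 3 had 22.7 and 24.3 CPM. The library labelled fl/fl UUO LY2109761 replicate 3 also went against its label, with Pcmt1 at 25.7 CPM, within the 22.7 to 28.0 CPM of the other tKO libraries, whereas replicates 1 and 4 of its group had 31.3 and 39.0 CPM. The sum of 7 adipocyte markers was 149 CPM in fl/fl sham replicate 1, 26.5 to 75.1 CPM in tKO sham and 7.85 to 40.1 CPM in fl/fl UUO with LY2109761, against at most 6.53 CPM in every other library. Counts and medians that include these libraries are given with and without them where leaving one out changed a call or moved a value by over 1.5 times.

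Promoter sequences are shown for 4 of the genes whose levels carried the results, because they differ in the binding motifs of SREBPs and of NF-Y, the factor that binds next to them. Each is the 250 bases before the start of the gene in RefSeq (GRCm38.p6), read 5′ to 3′ on the strand of the gene, with matches on either strand in capitals.
Hmgcs1: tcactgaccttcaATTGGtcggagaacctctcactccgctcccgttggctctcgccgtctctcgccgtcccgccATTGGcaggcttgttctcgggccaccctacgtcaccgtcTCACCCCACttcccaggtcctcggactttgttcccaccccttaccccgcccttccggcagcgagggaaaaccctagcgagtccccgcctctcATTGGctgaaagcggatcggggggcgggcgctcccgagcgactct
Cyp51: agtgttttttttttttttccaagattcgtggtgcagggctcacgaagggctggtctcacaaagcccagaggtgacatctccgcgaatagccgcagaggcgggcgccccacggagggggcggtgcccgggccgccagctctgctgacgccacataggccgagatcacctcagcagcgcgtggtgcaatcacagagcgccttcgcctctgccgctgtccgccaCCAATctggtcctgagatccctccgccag
Ebp: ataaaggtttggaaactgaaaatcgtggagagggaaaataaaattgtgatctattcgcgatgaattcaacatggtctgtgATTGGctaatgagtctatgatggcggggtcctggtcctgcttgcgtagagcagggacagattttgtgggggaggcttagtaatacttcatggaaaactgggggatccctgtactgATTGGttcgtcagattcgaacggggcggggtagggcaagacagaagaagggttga
Fasn: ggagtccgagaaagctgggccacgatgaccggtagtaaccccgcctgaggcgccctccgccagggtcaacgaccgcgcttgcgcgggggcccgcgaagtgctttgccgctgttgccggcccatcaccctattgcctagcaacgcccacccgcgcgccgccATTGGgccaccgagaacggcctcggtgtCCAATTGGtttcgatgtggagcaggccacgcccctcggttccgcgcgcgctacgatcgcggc

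The capitals mark the NF-Y box CCAAT, seen as ATTGG on the other strand, and in Hmgcs1 also the sterol regulatory element TCACNCCAC. In Fasn a pair of NF-Y boxes on opposite strands share bases. The windows lie at chr13:119690101-119690350 (plus strand) for Hmgcs1, chr5:4104698-4104947 (minus) for Cyp51, chrX:8193513-8193762 (minus) for Ebp and chr11:120824548-120824797 (minus) for Fasn. RefSeq windows were used for 25 of the 31 genes. The NF-Y box was found in 20 of these 25, among them 14 of 15 sterol synthesis genes and 2 of 5 fatty acid genes, against 37.49% of 27025 genes with a window. The sterol regulatory element in this spelling was found only in Hmgcs1 among the 25, against 1.22% of all genes, and the E-box CACGTG in 5 of 25, against 6.86%. A match says only that these letters are in the window, and the absence of one says nothing of the factor.

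Levels of different genes were compared by the deposited FPKM, which takes gene length into account. In fl/fl sham kidneys the highest were Hmgcs1 (HMG-CoA synthase) at 61.2 ± 12.4 FPKM, Cyp51 (lanosterol demethylase) at 50.3 ± 5.46, Me1 (malic enzyme, a source of NADPH) at 43.6 ± 4.54, Scd1 (stearoyl-CoA desaturase) at 40.8 ± 11.1, Mvd (mevalonate diphosphate decarboxylase) at 32.6 ± 2.10 and Ebp (a sterol isomerase) at 24.6 ± 1.05 (SD, n = 3). Each gene in this order overlapped the next within 1 SD, except Mvd and Ebp. The lowest were Lss (lanosterol synthase) at 1.01 ± 0.0512 FPKM and Acaca (acetyl-CoA carboxylase) at 1.22 ± 0.239. A few members varied widely between libraries of the same group. Scd2, another stearoyl-CoA desaturase, ranged from 0.691 to 127 CPM in tKO UUO and from 2.39 to 357 CPM in tKO sham, a within-group ratio of up to 183. Idi1, the isopentenyl diphosphate isomerase, reached a ratio of 24.6, Dhcr7, a sterol reductase that completes cholesterol, 5.55, and Pmvk, phosphomevalonate kinase, 5.01. The other 27 members stayed at or below 2.45. These 4 variable genes did not pass edgeR's test in any of the 9 comparisons below.

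**Figure D1:**
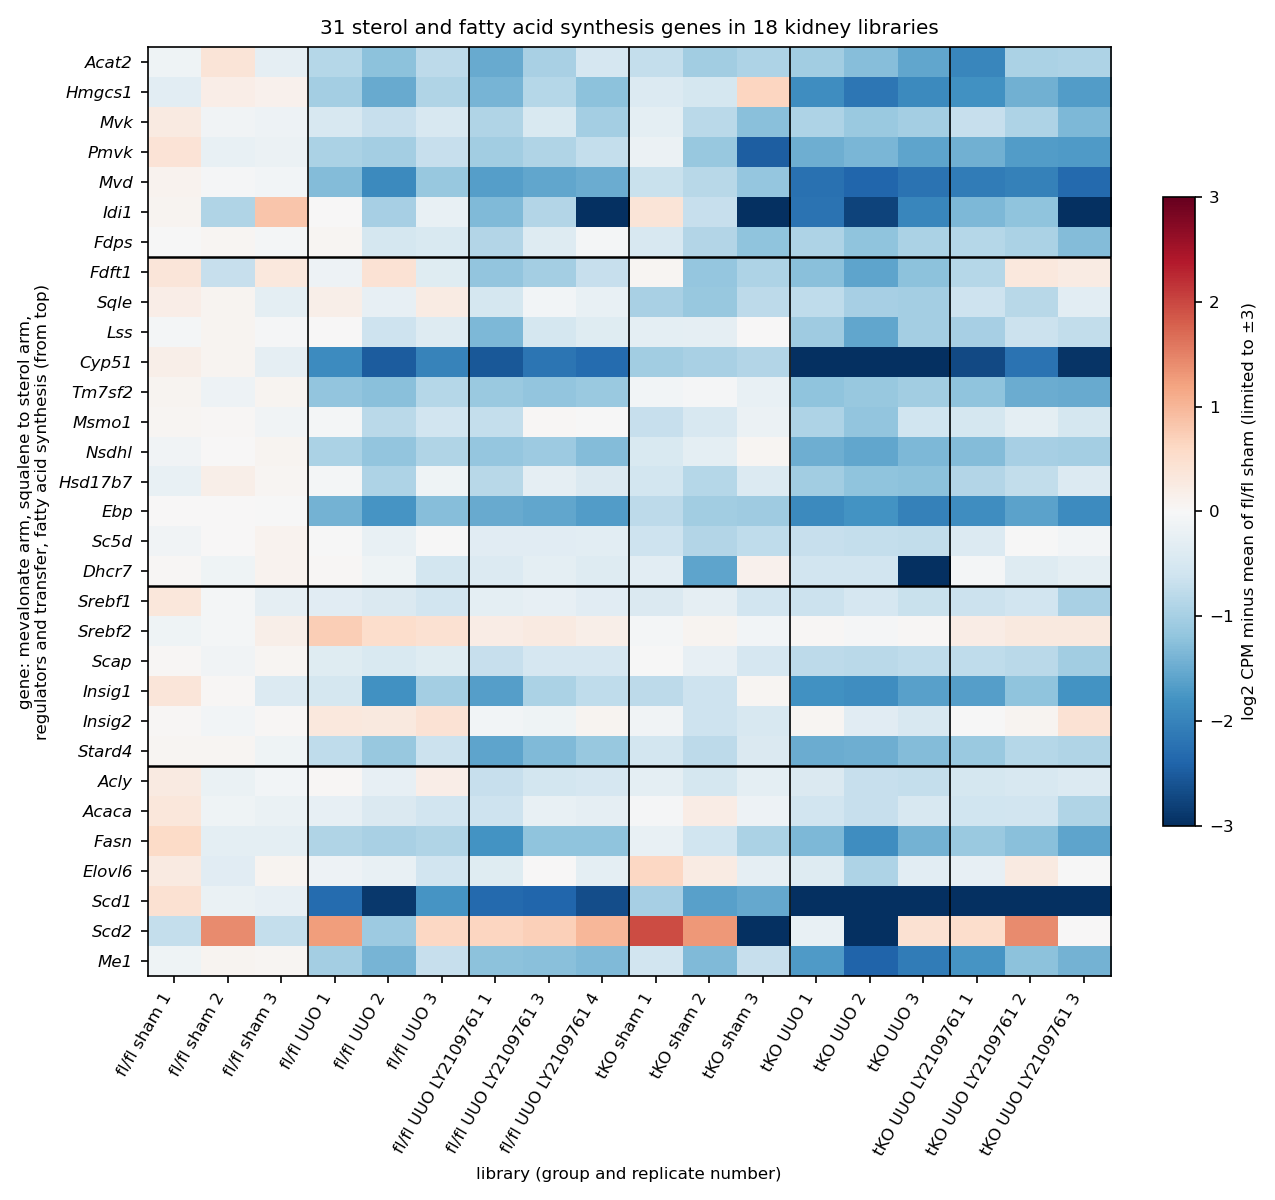
Level of each of the 31 genes (rows, grouped by role) in each of the 18 libraries (columns), as log2 CPM minus the mean of fl/fl sham, with colours limited to ±3. Cyp51, Scd1, Ebp and Mvd are lower in every UUO library than in any sham library of the same genotype, while Scd2 and Idi1 vary between libraries of the same group.

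Obstruction was compared with sham surgery in each genotype. In fl/fl kidneys 14 of the 31 genes were lower after UUO and 1 was higher, where 18.7% of all tested genes were lower and 20.9% higher. In tKO kidneys 15 were lower and 0 higher, where 19.4% of all tested genes were lower and 21.6% higher. By role, 7 of 18 sterol synthesis genes fell in each genotype, 3 of 7 fatty acid genes fell in fl/fl and 5 of 7 in tKO, and of the 6 regulators and transfer genes 4 fell and 1 rose in fl/fl and 3 fell in tKO. These directions are relative to the bulk of expressed genes. With column totals in place of TMM the median of all tested genes moved from 0.02 to 0.76 on the log2 scale in fl/fl and from 0.02 to 1.06 in tKO. The split of the members became 5 higher and 3 lower in fl/fl, beside 8547 higher and 906 lower of 19256 genes. In tKO it became 7 higher and 3 lower, beside 11686 higher and 715 lower. When single libraries were left out, 11 to 16 members were called in fl/fl and 14 to 16 in tKO. Over all genes these fits called 3352 to 3835 higher and 2889 to 3445 lower in fl/fl. In tKO they called 3524 to 4177 higher and 3010 to 3561 lower.

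In the mevalonate arm, Mvd had 92.4, 82.8 and 81.2 CPM in the 3 fl/fl sham libraries and 34.3, 22.6 and 38.9 CPM in the 3 fl/fl UUO libraries. No UUO library reached the lowest sham library, and Mvd had a log2 fold change of −1.42 (SE 0.18, edgeR adjusted p = 1.6e-05). All rises and falls below are log2 values. Fewer cells of a type and less RNA per cell cannot be told apart in such bulk samples. In tKO, Mvd was at 54.0, 47.9 and 38.1 CPM in sham and 17.9, 16.3 and 18.2 CPM in UUO and fell by 1.42 (SE 0.18, edgeR adjusted p = 1.7e-05). Mvd lies on GRCm38 chromosome 8 (ENSMUSG00000006517, 122433601 to 122443422) and shares its whole span with the gene model Gm20388 on the other strand. The strand setting of the counting is not given in the sources used here, so reads of the 2 models may have been split. Hmgcs1, Lss, Acaca, Tm7sf2 and Cyp51 also overlap other annotated genes, over 166 bases (Cyp51) to 19126 bases (Acaca).

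Hmgcs1, which makes HMG-CoA, had 434, 621 and 597 CPM in fl/fl sham and 267, 189.8 and 289 CPM in fl/fl UUO, and fell by 1.15 (SE 0.27, edgeR adjusted p = 0.0031). In tKO it went from 408, 379.9 and 843 CPM to 148, 120.2 and 145 CPM and fell by 1.98 (SE 0.28, edgeR adjusted p = 4.2e-05). The sham libraries of tKO were spread, and replicate 3, the library with 69.5% mitochondrial counts, was the highest. Without it the fall was 1.51 (the range over left-out libraries was −2.18 to −1.51). Acat2, the cytosolic thiolase that starts the pathway, had 77.2, 110.2 and 70.1 CPM in fl/fl sham and 46.4, 35.9 and 48.9 CPM in fl/fl UUO and fell by 0.97 (SE 0.28, edgeR adjusted p = 0.0122), while in tKO its value was −0.39 (SE 0.28, edgeR adjusted p = 0.2899). The fl/fl call of Acat2 was lost without fl/fl sham replicate 2 (−0.75, edgeR adjusted p = 0.0715) and without fl/fl UUO replicate 2 (−0.84, edgeR adjusted p = 0.0595). Mvk, Pmvk, Idi1 and Fdps did not pass in either genotype. Mvk (mevalonate kinase), Pmvk, Idi1 and Fdps (farnesyl diphosphate synthase) ranged from −0.91 to −0.28 in fl/fl and from −1.73 to −0.21 in tKO.

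Between squalene and cholesterol, 4 of 11 genes fell in fl/fl and 5 of 11 in tKO. Cyp51 (ENSMUSG00000001467, chromosome 5, 4081145 to 4104746) had 407, 385 and 302 CPM in fl/fl sham and 98.3, 64.4 and 89.9 CPM in fl/fl UUO. Its highest UUO library was far below its lowest sham library, and Cyp51 fell by 2.12 (SE 0.20, edgeR adjusted p = 1.2e-06). The tKO libraries had 176, 185 and 197 CPM in sham and 40.0, 37.4 and 45.6 CPM in UUO, a fall of 2.18 (SE 0.20, edgeR adjusted p = 1.1e-06). Ebp (ENSMUSG00000031168, chromosome X, 8185329 to 8193512) had 119, 118 and 116 CPM in fl/fl sham and 43.6, 34.5 and 48.0 CPM in fl/fl UUO and fell by 1.48 (SE 0.14, edgeR adjusted p = 9.5e-07). In tKO, Ebp went from 67.7, 56.8 and 55.8 CPM to 31.1, 34.0 and 28.9 CPM and fell by 0.94 (SE 0.13, edgeR adjusted p = 5.2e-05), although with column totals its value there was 0.09, against 1.06 for the median gene. The libraries of sham and UUO did not overlap for either gene in either genotype.

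Tm7sf2, a sterol reductase, had 25.2, 21.4 and 25.1 CPM in fl/fl sham and 10.5, 9.99 and 13.1 CPM in fl/fl UUO and fell by 1.10 (SE 0.14, edgeR adjusted p = 2e-05). In tKO it went from 22.5, 23.3 and 20.3 to 10.3, 10.8 and 11.4 CPM and fell by 1.02 (SE 0.14, edgeR adjusted p = 3.9e-05, but 0.01 with column totals). Nsdhl, a sterol dehydrogenase, had 65.1, 69.7 and 73.9 CPM in fl/fl sham and 35.8, 30.4 and 37.4 CPM in fl/fl UUO and fell by 1.01 (SE 0.14, edgeR adjusted p = 4.4e-05). Its tKO libraries had 50.6, 56.8 and 72.4 CPM in sham and 25.2, 23.7 and 27.1 CPM in UUO, a fall of 1.24 (SE 0.14, edgeR adjusted p = 7.7e-06). Lss, which closes the sterol ring, fell in tKO by 1.02 (SE 0.24, edgeR adjusted p = 0.003, but 0.08 with column totals), from 20.2, 20.7 and 25.1 to 11.8, 8.38 and 12.3 CPM, and its fl/fl value was −0.31 (adjusted p = 0.3133 by edgeR). Sqle and Sc5d did not pass. Sqle (squalene epoxidase, a rate-limiting step of the pathway) had 112, 102 and 79.0 CPM in fl/fl sham and 109, 81.2 and 115 CPM in fl/fl UUO, a value of 0.06 with a 95% interval of −0.33 to 0.45, and 0.04 in tKO. Sc5d, which desaturates a late sterol intermediate, was at −0.08 in fl/fl (−0.35 to 0.18) and 0.02 in tKO. Fdft1 (squalene synthase), Msmo1 (methylsterol monooxygenase), Hsd17b7 (a sterol ketoreductase) and Dhcr7 ranged from −0.44 to −0.07 in fl/fl and from −0.78 to −0.44 in tKO, none past the threshold.

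Among the regulators, Srebf2 was the only member that rose with obstruction, and only the fl/fl comparison called it. Its libraries had 82.3, 86.2 and 102 CPM in fl/fl sham and 149.5, 129 and 124 CPM in fl/fl UUO, a rise of 0.57 (SE 0.11, edgeR adjusted p = 0.00046). In tKO, Srebf2 had 86.5, 94.9 and 84.9 CPM in sham and 92.2, 87.0 and 92.0 CPM in UUO, a value of 0.03 (SE 0.11, edgeR adjusted p = 0.8682). The difference between the genotypes was −0.55 (SE 0.15, edgeR adjusted p = 0.1392) and did not pass. Stard4, a sterol transfer protein of the cytosol, fell from 81.5, 81.7 and 72.0 to 46.4, 35.3 and 49.8 CPM in fl/fl by 0.84 (SE 0.15, edgeR adjusted p = 0.00041). In tKO, Stard4 had 53.5, 45.5 and 57.8 CPM in sham and 27.9, 28.1 and 31.5 CPM in UUO and fell by 0.84 (SE 0.15, edgeR adjusted p = 0.00042, but 0.24 with column totals). Insig1 fell in fl/fl from 91.2, 72.3 and 53.2 to 49.3, 20.1 and 34.8 CPM by 1.06 (SE 0.32, edgeR adjusted p = 0.0155) and in tKO from 41.2, 45.7 and 73.6 to 19.9, 19.3 and 22.8 CPM by 1.37 (SE 0.33, edgeR adjusted p = 0.0033).

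Scap fell by 0.40 in fl/fl (SE 0.12, edgeR adjusted p = 0.0166), from 102, 92.7 and 103 to 77.5, 71.9 and 77.1 CPM, and by 0.55 in tKO (SE 0.12, edgeR adjusted p = 0.0019), from 98.0, 84.2 and 70.2 to 57.2, 56.4 and 58.5 CPM. With column totals the Scap values turned to 0.34 and 0.44, below the median gene in each genotype. Srebf1 fell by 0.47 in fl/fl (SE 0.15, edgeR adjusted p = 0.0206, but 0.27 with column totals), and was at −0.20 in tKO (adjusted p = 0.3285 by edgeR). Without fl/fl sham replicate 1, the library with the highest sum of adipocyte markers, the fl/fl values of Scap, Srebf1 and Insig1 were −0.37, −0.28 and −0.85 and did not pass (edgeR adjusted p = 0.0552, 0.1486 and 0.0731). The same 3 calls were lost without fl/fl UUO replicate 2 (edgeR adjusted p = 0.0691, 0.0543 and 0.0745), that of Scap also without fl/fl sham replicate 3 (edgeR adjusted p = 0.0569) and that of Srebf1 without fl/fl UUO replicate 3 (edgeR adjusted p = 0.079). Insig2 did not pass in either genotype, at 0.36 and 0.15.

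Of the fatty acid genes, Scd1 (ENSMUSG00000037071, chromosome 19, 44394455 to 44407879), which makes monounsaturated fatty acids, moved most. It had 399, 253 and 244 CPM in fl/fl sham and 58.7, 38.8 and 84.7 CPM in fl/fl UUO and fell by 2.30 (SE 0.28, edgeR adjusted p = 1.4e-05). In tKO it had 146, 94.3 and 99.7 CPM in sham and 24.4, 15.5 and 20.1 CPM in UUO and fell by 2.51 (SE 0.29, edgeR adjusted p = 7.4e-06). In both genotypes every UUO library was below every sham library. Fasn, fatty acid synthase, had 198, 109 and 109 CPM in fl/fl sham and 71.6, 68.1 and 71.3 CPM in fl/fl UUO and fell by 0.98 (SE 0.25, edgeR adjusted p = 0.0049). Fasn and Scd1 were highest in fl/fl sham replicate 1, where the sum of the adipocyte markers was 149 CPM against 6.3 and 6.51 CPM in the other sham libraries of that genotype. Without that library Fasn fell by 0.63 (edgeR adjusted p = 0.0402) and Scd1 fell by 2.03 (edgeR adjusted p = 8.2e-05). In tKO, Fasn went from 114, 88.6 and 69.4 to 52.4, 36.7 and 49.5 CPM and fell by 0.97 (SE 0.25, edgeR adjusted p = 0.0052). The adipocyte sum was 26.5 to 75.1 CPM in tKO sham and 4.02 to 5.94 CPM in tKO UUO. Every tKO sham library had these markers, so leaving out a library could not remove them. Their part in the tKO falls of the fatty acid genes was not tested.

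Me1 had 295, 344 and 335 CPM in fl/fl sham and 161, 124 and 201 CPM in fl/fl UUO and fell by 1.01 (SE 0.22, edgeR adjusted p = 0.0018). The tKO libraries of Me1 had 217, 130.0 and 200.5 CPM in sham and 99.6, 61.5 and 75.4 CPM in UUO, a fall of 1.21 (SE 0.22, edgeR adjusted p = 0.00046). Acaca, the enzyme that commits acetyl-CoA to fatty acids, fell in tKO by 0.61 (SE 0.17, edgeR adjusted p = 0.01, but 0.43 with column totals), from 31.7, 38.4 and 29.5 to 22, 20.1 and 23.3 CPM. Elovl6, a fatty acid elongase, fell there by 0.78 (SE 0.24, edgeR adjusted p = 0.0157, but 0.17 with column totals). Without the library labelled tKO sham replicate 1, 14 members were lower in tKO UUO, beside 3561 lower and 4177 higher of 19742 genes. Elovl6 was then at −0.54 and did not pass (edgeR adjusted p = 0.0941). Elovl6 also lost the call without tKO UUO replicate 2 (−0.61, edgeR adjusted p = 0.0798), and Acaca without tKO sham replicate 2 (−0.49, edgeR adjusted p = 0.0551). In fl/fl neither Acaca (−0.43) nor Elovl6 (−0.33) passed. Acly, ATP citrate lyase, which supplies cytosolic acetyl-CoA to both pathways, was at −0.01 in fl/fl (−0.32 to 0.3) and −0.23 in tKO (−0.54 to 0.08).

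**Figure D2:**
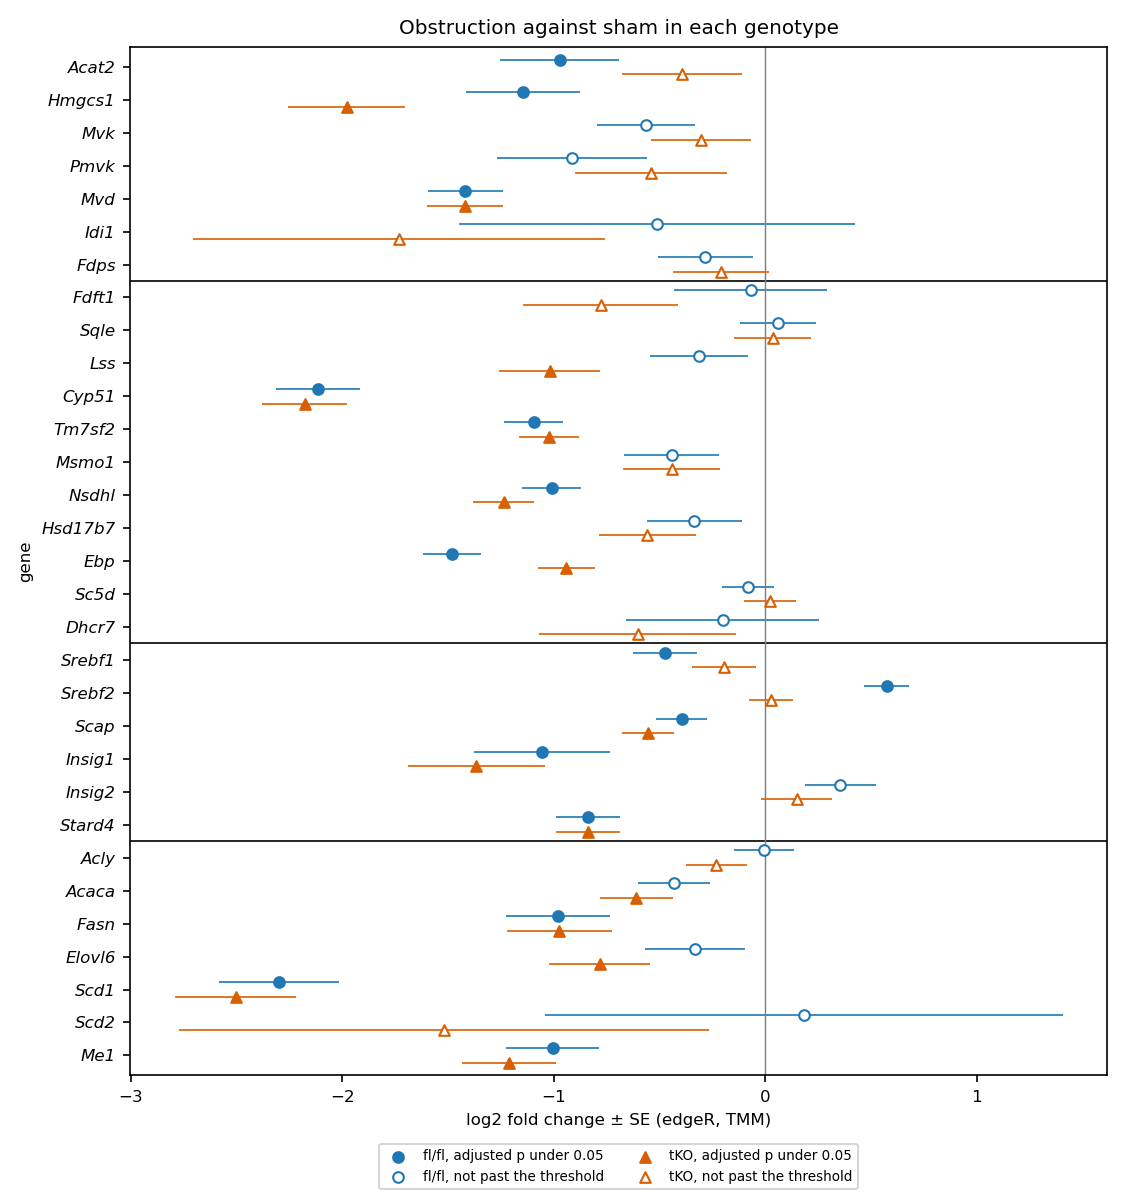
Log2 fold change of UUO against sham ± SE for each of the 31 genes in fl/fl (circles) and tKO kidneys (triangles), filled where the edgeR adjusted p is under 0.05. Cyp51 and Scd1 lie furthest left in both genotypes, at −2.12 and −2.30 in fl/fl and −2.18 and −2.51 in tKO, and Srebf2 is the only filled point right of 0.

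Whether obstruction acted on these genes to a different degree in the genotypes was tested as an interaction. No member passed in edgeR, where 0.0415% of all tested genes did. At an unadjusted p under 0.05 there were 1 member above and 2 below 0, beside 1216 above and 1207 below of 19256 genes. DESeq2 called 1 member, lower, beside 226 higher and 191 lower of 17422 genes. The median interaction was −0.015 over the sterol synthesis genes and −0.207 over the fatty acid genes, beside −0.017 over all genes. These medians were −0.087 and −0.367 without fl/fl sham replicate 1. Without the library labelled tKO sham replicate 1 they were −0.067 and −0.18. Over all left-out libraries they ran from −0.182 to 0.045 and from −0.376 to −0.11. Markers of the cell types in the kidney moved with obstruction, and their part in these results was not tested. All 7 proximal tubule markers were detected, and their sum was 3970 to 7080 CPM in fl/fl sham, 1480 to 2700 CPM in fl/fl UUO, 4520 to 6250 CPM in tKO sham and 748 to 1190 CPM in tKO UUO. The sum of 6 macrophage markers was 150 to 177 CPM in fl/fl sham, 650 to 762 CPM in fl/fl UUO, 164 to 226 CPM in tKO sham and 822 to 1800 CPM in tKO UUO.

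The genotypes were next compared within each treatment, sham first. In sham kidneys 10 of the 31 genes were lower in tKO and 0 higher, where 6.57% of all tested genes were lower. They were 7 of 18 sterol synthesis genes, 2 of 7 fatty acid genes and Stard4. Mvd was 85.5 ± 6.04 CPM in fl/fl sham and 46.6 ± 8.04 CPM in tKO sham (SD, n = 3), a log2 fold change of −0.87 (SE 0.18, edgeR adjusted p = 0.0099). Ebp, at 117 ± 1.51 and 60.1 ± 6.57 CPM, fell by 0.96 (SE 0.13, edgeR adjusted p = 0.0021), and Cyp51, at 365 ± 55.3 and 186 ± 10.6 CPM, fell by 0.98 (SE 0.19, edgeR adjusted p = 0.009). For these 3 genes every tKO sham library, given above, lay below every fl/fl sham library.

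Sqle and Sc5d, which had not passed with obstruction, were lower in tKO sham. Sqle had 112, 102 and 79.0 CPM in fl/fl sham and 49.0, 43.6 and 56.4 CPM in tKO sham and fell by 0.98 (SE 0.18, edgeR adjusted p = 0.0076). Sc5d had 31.6, 34.4 and 36.6 CPM in fl/fl sham and 22.2, 18.6 and 20.1 CPM in tKO sham and fell by 0.75 (SE 0.12, edgeR adjusted p = 0.0046). Neither gene had overlapping libraries. Fdps, which makes farnesyl diphosphate, had 33.7, 35.6 and 32.9 CPM in fl/fl sham and 24.5, 18.6 and 14.8 CPM in tKO sham and fell by 0.81 (SE 0.23, edgeR adjusted p = 0.0327). It overlaps the gene model Gm43738 on the same strand over 7512 bases, so its counts are uncertain. Acat2 fell by 0.92 (SE 0.28, edgeR adjusted p = 0.0469), from 85.8 ± 21.4 to 45.5 ± 5.16 CPM, and Stard4 by 0.59 (SE 0.15, edgeR adjusted p = 0.0238), from 78.4 ± 5.55 to 52.3 ± 6.26 CPM. Scd1 was at 299 ± 86.8 CPM in fl/fl sham and 113 ± 28.4 CPM in tKO sham and fell by 1.40 (SE 0.28, edgeR adjusted p = 0.009), and without fl/fl sham replicate 1 by 1.14 (edgeR adjusted p = 0.0321). Me1, at 325 ± 26.4 and 183 ± 46.3 CPM, fell by 0.83 (SE 0.22, edgeR adjusted p = 0.026).

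Hmgcs1 (−0.02), Srebf2 (−0.02) and Acaca (0.00) were close to 0 between the genotypes in sham, with 95% intervals of −0.6 to 0.56, −0.25 to 0.21 and −0.37 to 0.38. For Hmgcs1 the tKO sham libraries were spread. Replicate 3, with 69.5% mitochondrial counts, was at 843 CPM, and the others lay below the fl/fl sham range of 434 to 621 CPM. The sum of 4 fibroblast markers also differed between the genotypes, at 112 to 141 CPM in fl/fl sham and 222 to 334 CPM in tKO sham, and at 765 to 912 CPM in fl/fl UUO and 1510 to 2710 CPM in tKO UUO, and its part in these results was not tested. The library labelled tKO sham replicate 1 was part of all the sham values. Without it, 16 members were lower and 0 higher, beside 2358 lower and 1877 higher of 19742 genes. Ebp then fell by 1.06 (edgeR adjusted p = 7.2e-04), Sc5d by 0.83 (edgeR adjusted p = 0.0015) and Scd1 by 1.63 (edgeR adjusted p = 0.0029). The count was 6 without tKO sham replicate 2 or without fl/fl sham replicate 2, beside 210 of 19748 and 416 of 19696 genes lower. It was 4 with column totals, beside 222 of 19256 genes lower. In a fit of only these 2 groups it was 0, where 3 higher and 3 lower of 16526 genes were called. Ebp, Cyp51, Mvd, Sqle, Sc5d and Scd1 passed in each of the 6 fits that left out a library, while Acat2 and Fdps lost the call in 5, Me1 in 4 and Stard4 in 3, and the fit without fl/fl sham replicate 1 was among those of Acat2, Fdps and Stard4.

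The same comparison was made after obstruction. In UUO kidneys 18 of the 31 were lower in tKO and 0 higher, where 9.65% of all tested genes were lower. All 31 values lay below 0, where 10344 of 19256 tested genes lay above 0. Of these 18, 11 were sterol synthesis genes, 4 were regulators or transfer genes and 3 were fatty acid genes. Scd1 was at 60.8 ± 23.0 CPM in fl/fl UUO and 20.0 ± 4.46 CPM in tKO UUO (SD, n = 3) and fell by 1.60 (SE 0.28, edgeR adjusted p = 0.003). Its 3 tKO libraries, at 24.4, 15.5 and 20.1 CPM, were all below the lowest fl/fl library, at 38.8 CPM. Sqle had 109, 81.2 and 115 CPM in fl/fl UUO and 56.9, 48.3 and 47.3 CPM in tKO UUO and fell by 1.0 (SE 0.18, edgeR adjusted p = 0.0035). Cyp51, at 84.2 ± 17.7 and 41.0 ± 4.24 CPM, fell by 1.04 (SE 0.19, edgeR adjusted p = 0.0039). Sc5d had 34.1, 29.2 and 33.7 CPM in fl/fl UUO and 21.0, 20.6 and 20.3 CPM in tKO UUO and fell by 0.65 (SE 0.12, edgeR adjusted p = 0.0041). The libraries of these genes did not overlap between the genotypes. Cell type markers also differed in this comparison, and their part in these results was not tested. All 7 proximal tubule markers lay below 0 (2 called lower, median −1.096). All 6 macrophage markers lay above 0 (3 called higher, median 0.793). Over all tested genes 9.65% were lower and 8.27% higher.

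Srebf2 had 149.5, 129 and 124 CPM in fl/fl UUO and 92.2, 87.0 and 92.0 CPM in tKO UUO and fell by 0.57 (SE 0.10, edgeR adjusted p = 0.0038), with no overlap. The other regulators that fell were Stard4 by 0.59 (SE 0.15, edgeR adjusted p = 0.017), Insig2 by 0.59 (SE 0.17, edgeR adjusted p = 0.025) and Scap by 0.39 (SE 0.12, edgeR adjusted p = 0.035). Insig2, which retains Scap in the endoplasmic reticulum, had 35.5, 35.0 and 38.5 CPM in fl/fl UUO and 29.6, 22.5 and 20.4 CPM in tKO UUO. In the mevalonate arm Mvd, at 32.0 ± 8.39 and 17.4 ± 1.03 CPM, fell by 0.87 (SE 0.18, edgeR adjusted p = 0.0056), Hmgcs1, at 248 ± 52.1 and 138 ± 15.3 CPM, by 0.85 (SE 0.27, edgeR adjusted p = 0.0392), and Fdps, at 28.0 ± 6.77 and 16.8 ± 1.75 CPM, by 0.74 (SE 0.23, edgeR adjusted p = 0.0345). Lss had 25.1, 16.1 and 19.1 CPM in fl/fl UUO and 11.8, 8.38 and 12.3 CPM in tKO UUO and fell by 0.89 (SE 0.24, edgeR adjusted p = 0.0189). Fdft1, Hsd17b7, Ebp and Nsdhl also fell, by 1.36, 0.84, 0.42 and 0.45 (edgeR adjusted p = 0.0212, 0.0212, 0.0389 and 0.0398).

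In the fatty acid arm Me1, at 162 ± 38.3 CPM in fl/fl UUO and 78.8 ± 19.3 CPM in tKO UUO, fell by 1.04 (SE 0.22, edgeR adjusted p = 0.007), and Acly fell by 0.61 (SE 0.14, edgeR adjusted p = 0.0108). The libraries of Acly had 103, 84.5 and 117 CPM in fl/fl UUO and 74.8, 62.9 and 61.6 CPM in tKO UUO, with no overlap. Fasn (−0.61, SE 0.25, edgeR adjusted p = 0.0988), Acaca (−0.17) and Elovl6 (−0.22) did not pass. The count of 18 became 8 without tKO UUO replicate 2, beside 934 lower of 19637 genes. It was 9 without fl/fl UUO replicate 1, beside 872 lower of 19691. Without tKO UUO replicate 3 or fl/fl UUO replicate 3 it was 10, beside 987 lower of 19643 and 1239 lower of 19687. Column totals gave 3, beside 317 lower of 19256. Mvd, Scd1, Sqle, Cyp51, Sc5d, Srebf2, Me1 and Acly passed in each of the 6 fits that left out a library, while Scap lost the call in all 6, Ebp, Fdps, Hmgcs1 and Nsdhl in 5, Hsd17b7, Insig2 and Stard4 in 4, Fdft1 in 3 and Lss in 2.

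**Figure D3:**
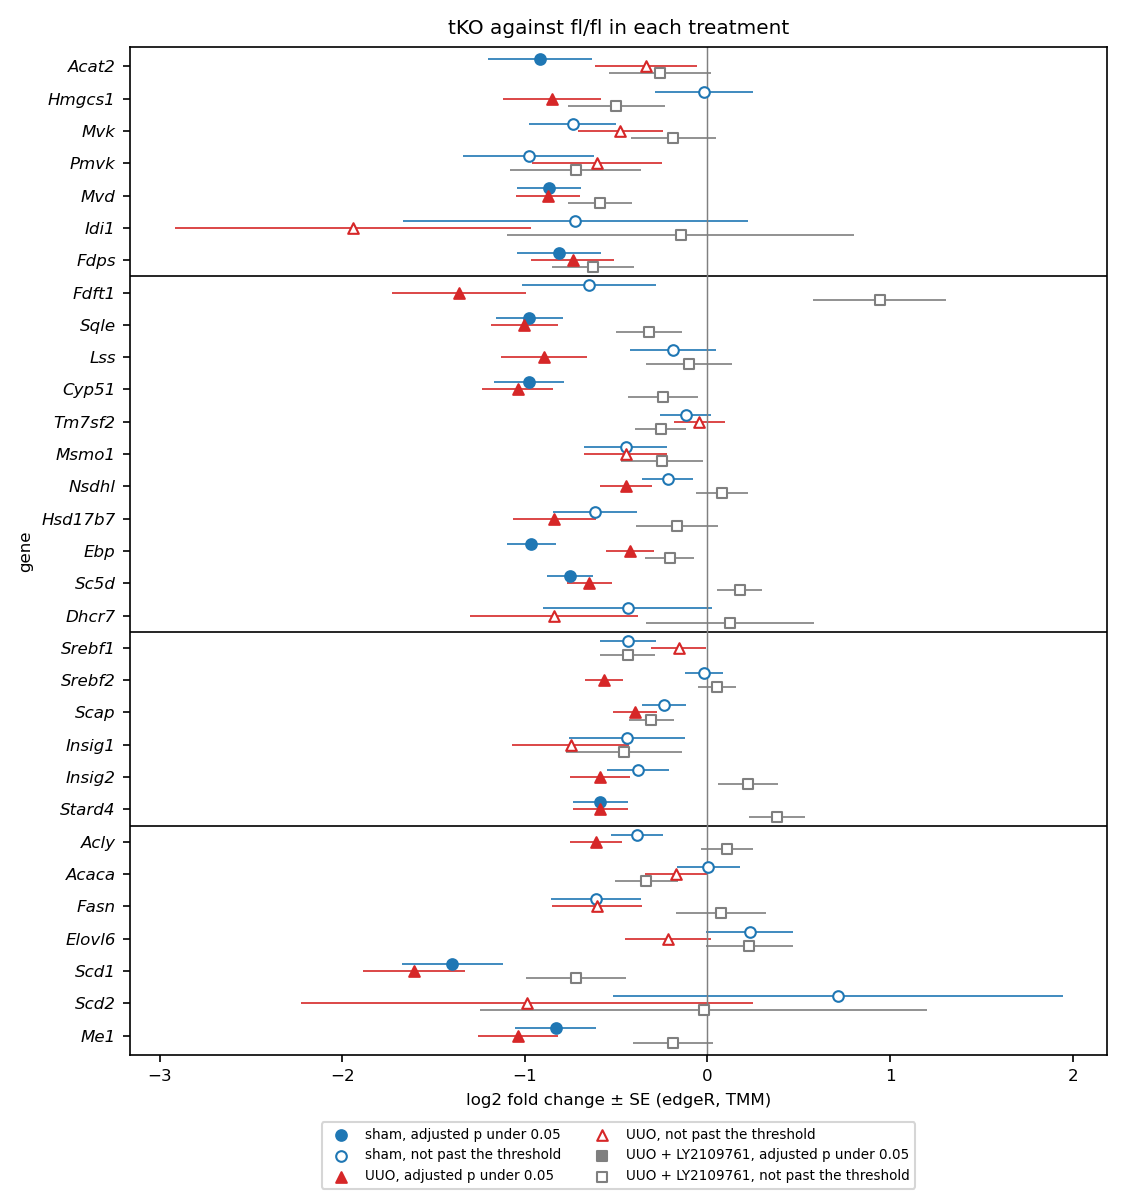
Log2 fold change of tKO against fl/fl ± SE for each gene in sham (circles), UUO (triangles) and UUO with LY2109761 (squares), filled where the edgeR adjusted p is under 0.05. The triangles all lie left of 0, 10 circles and 18 triangles are filled, and no square is filled.

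With LY2109761 no member passed the threshold between the libraries labelled tKO and fl/fl, and the fl/fl group includes replicate 3, whose Pcmt1 was at the tKO level. The count by edgeR was 0 members, beside 2.98% of all tested genes in either direction. At an unadjusted p under 0.05 there were 2 higher and 5 lower of 31, beside 1640 higher and 2127 lower of 19256 genes, and DESeq2 called 1 lower, beside 553 higher and 937 lower of 18054. Mvd was lowest in p, at −0.59 (SE 0.18, edgeR adjusted p = 0.0809), with 26.9, 29.1 and 30.3 CPM in fl/fl and 19.8, 20.8 and 16.8 CPM in tKO, which did not overlap. Scd1 was at −0.72 (SE 0.27, edgeR adjusted p = 0.1608) and Fdps at −0.63 (SE 0.23, edgeR adjusted p = 0.1417). The medians were −0.225 over the sterol synthesis genes and −0.021 over the fatty acid genes, beside 0.019 over all genes. Without the library labelled fl/fl UUO LY2109761 replicate 3 the count was again 0, and the medians were −0.138 and −0.059. The fatty acid median ran from −0.312 to 0.096 when single libraries were left out.

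The drug was then compared with DMSO within each genotype. In fl/fl UUO kidneys 1 of the 31 genes, Acly, was lower with LY2109761, where 2.62% of all tested genes were lower. Acly had 103, 84.5 and 117 CPM with DMSO and 62.5, 69.2 and 71.1 CPM with the drug, which did not overlap, and fell by 0.59 (SE 0.14, edgeR adjusted p = 0.0322). The call was lost without fl/fl UUO replicate 1 or 3 and without fl/fl UUO LY2109761 replicate 1 or 3, and without LY2109761 replicate 4 the count was 2. Without replicate 3, the library with Pcmt1 at the tKO level, Acly was at −0.60 (edgeR adjusted p = 0.1338). Srebf2 went from 134 ± 13.7 to 104 ± 3.72 CPM at −0.36 (SE 0.10, edgeR adjusted p = 0.0582), and Stard4 from 43.8 ± 7.59 to 30.9 ± 4.72 CPM at −0.50 (SE 0.15, edgeR adjusted p = 0.0637). In tKO UUO kidneys edgeR called no member and 0.171% of all tested genes, at an unadjusted p under 0.05 there were 11 higher and 0 lower of 31, beside 1635 higher and 1679 lower of 19256 genes, and DESeq2 called 2 higher, beside 438 higher and 508 lower of 16789. Of the 31 values 25 lay above 0, beside 9479 of 19256. Sc5d had 21.0, 20.6 and 20.3 CPM with DMSO and 25.9, 33.7 and 32.1 CPM with the drug, which did not overlap, at 0.57 (SE 0.12, edgeR adjusted p = 0.0724). Fdft1 was at 1.34 (SE 0.37, edgeR adjusted p = 0.106) and Cyp51 at 0.55 (SE 0.19, edgeR adjusted p = 0.1635).

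A test of the difference between these drug effects, tKO minus fl/fl, called 6 of the 31 genes, all higher, where 7.05% of all tested genes were higher. The 2 sterol synthesis genes were Fdft1 and Sc5d. Fdft1 had 33.1, 49.7 and 28.8 CPM in fl/fl UUO and 16.3, 18.3 and 22.7 CPM with the drug, against 15.4, 12.2 and 15.8 CPM in tKO UUO and 20.3, 46.1 and 43.9 CPM with the drug, an interaction of 2.30 (SE 0.52, edgeR adjusted p = 0.0111). Fdft1 shares 774 bases with Ctsb, a lysosomal protease gene on the other strand, so its counts are uncertain. Sc5d, at 32.4 ± 2.69 and 27.1 ± 0.156 CPM in fl/fl and 20.6 ± 0.384 and 30.6 ± 4.16 CPM in tKO, had an interaction of 0.82 (SE 0.17, edgeR adjusted p = 0.0077). Its drug value was −0.26 in fl/fl and 0.57 in tKO.

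The 3 regulators and transfer genes were Srebf2, Insig2 and Stard4. Srebf2 had 104, 108 and 101 CPM in fl/fl and 105, 111 and 109 CPM in tKO with the drug, beside the DMSO values given above, and an interaction of 0.62 (SE 0.15, edgeR adjusted p = 0.0146). Stard4 had 26.1, 31.2 and 35.5 CPM in fl/fl and 36.0, 43.2 and 41.6 CPM in tKO with the drug, and an interaction of 0.97 (SE 0.21, edgeR adjusted p = 0.0101). Insig2 had 26.8, 26.1 and 29.9 CPM in fl/fl and 28.1, 30.1 and 38.4 CPM in tKO with the drug, and an interaction of 0.81 (SE 0.23, edgeR adjusted p = 0.0328). In the fatty acid arm Acly, at 67.6 ± 4.53 CPM in fl/fl and 72.7 ± 2.87 CPM in tKO with the drug, had an interaction of 0.71 (SE 0.20, edgeR adjusted p = 0.0299). The interaction shares its DMSO groups with the comparison of genotypes in UUO. With column totals 0 of the 6 passed, at the same sizes, beside 164 higher of 19256 genes. The count was 4 to 7 when single libraries were left out, beside 714 to 1514 genes higher. It was 4 without tKO UUO replicate 2 or 3, fl/fl UUO replicate 1 or 3, or fl/fl UUO LY2109761 replicate 1 or 3. Insig2 and Acly each lost the call in 8 of these 12 fits, and the other 4 genes passed in all of them. Without the library labelled fl/fl UUO LY2109761 replicate 3, whose Pcmt1 was at the tKO level, Insig2 was at 0.77 and Acly at 0.73 (edgeR adjusted p = 0.0818 and 0.0619). Cell type markers moved in the same test, and their part in these results was not tested. Of 7 proximal tubule markers 2 were called higher and all 7 values lay above 0 (median 0.993), of 4 fibroblast markers 2 were called lower (median −1.003), and of 6 macrophage markers 0 were called by edgeR, with 2 lower at an unadjusted p under 0.05 (median −0.653). The proximal tubule sum was 1120 to 1530 CPM in fl/fl and 1160 to 1600 CPM in tKO with the drug, and the fibroblast sum was 1140 to 1330 CPM and 995 to 1490 CPM.

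**Figure D4:**
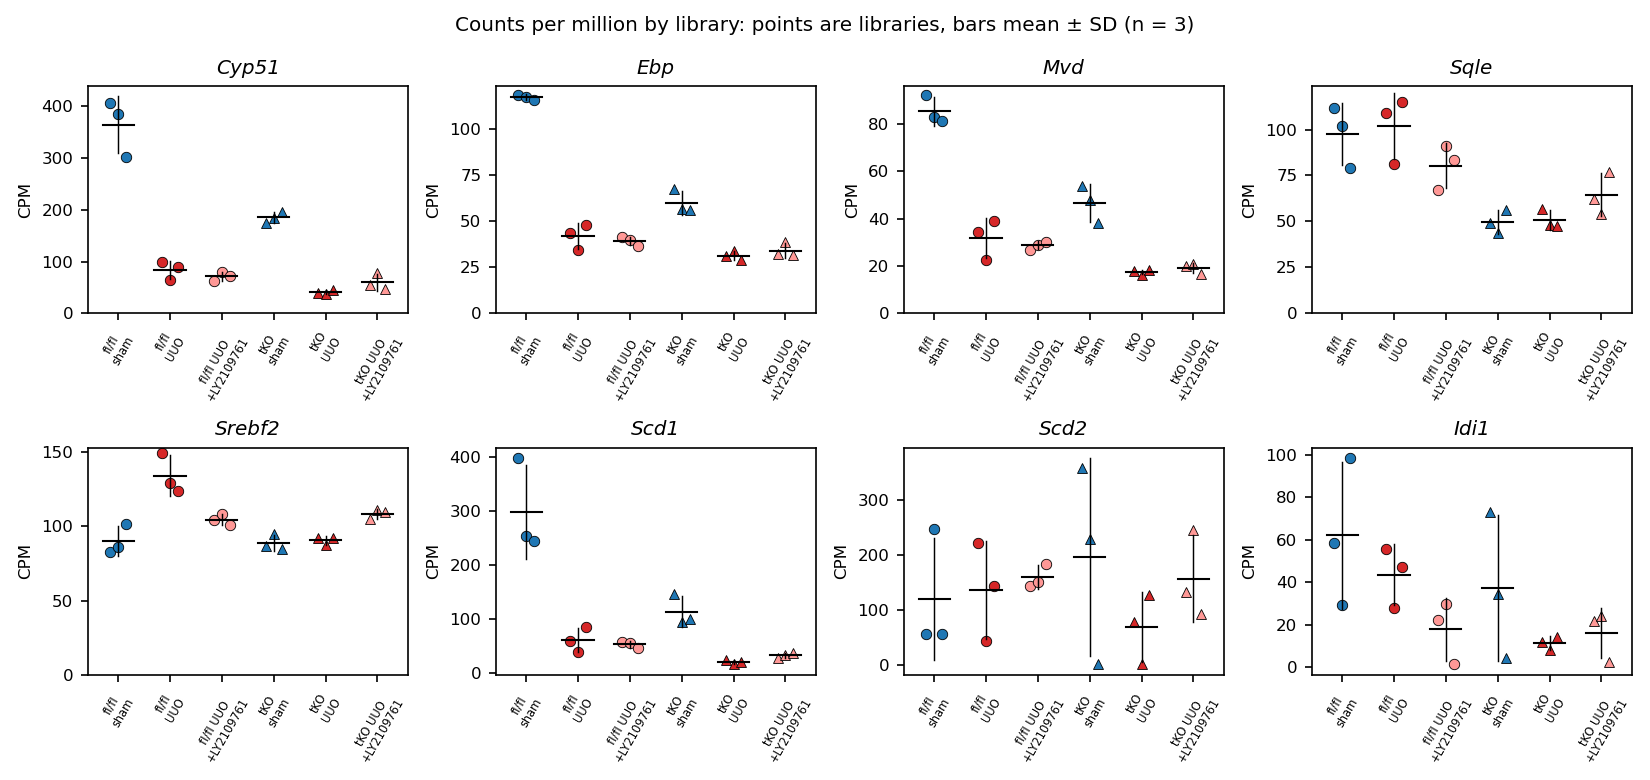
CPM of 8 genes in each library (points) with the mean ± SD of each group of 3 (bars), fl/fl as circles and tKO as triangles. Cyp51, Ebp, Mvd and Scd1 step down with both obstruction and genotype, Sqle is lower in tKO in sham and UUO, Srebf2 is highest in fl/fl UUO, and Scd2 and Idi1 show the widest spread within groups.

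Sterol and fatty acid synthesis were set side by side over the 6 groups, as the median of their genes in each library relative to the mean of fl/fl sham (log2). The 18 sterol synthesis genes had medians of −0.03 to 0.04 in fl/fl sham, −0.96 to −0.32 in fl/fl UUO, −1.14 to −0.71 in fl/fl UUO with LY2109761, −0.86 to −0.46 in tKO sham, −1.33 to −1.14 in tKO UUO and −1.16 to −0.95 in tKO UUO with LY2109761. Sham and UUO did not overlap within a genotype, and neither did fl/fl and tKO within sham or within UUO. The 7 fatty acid genes had medians of −0.21 to 0.27 in fl/fl sham, −0.97 to −0.25 in fl/fl UUO, −0.69 to −0.51 in fl/fl UUO with LY2109761, −0.69 to −0.22 in tKO sham, −1.86 to −0.57 in tKO UUO and −0.89 to −0.58 in tKO UUO with LY2109761. Here tKO sham and tKO UUO overlapped, and so did fl/fl and tKO UUO. The spread within groups was 0.155 for the sterol and 0.42 for the fatty acid median (pooled SD, log2).

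By comparison, the median fold changes were −0.538 for sterol and −0.431 for fatty acid synthesis with obstruction in fl/fl, beside 0.023 over all genes, and −0.691 and −0.975 in tKO, beside 0.016. Between the genotypes they were −0.731 and −0.387 in sham (0.029 over all genes) and −0.788 and −0.609 in UUO (0.049 over all genes). With LY2109761 against DMSO they were −0.174 and −0.193 in fl/fl and 0.346 and 0.547 in tKO. Without fl/fl sham replicate 1 the fatty acid medians were −0.238 for obstruction in fl/fl and −0.245 between the genotypes in sham, and without the library labelled tKO sham replicate 1 the sterol median in sham was −0.954. The drug medians in fl/fl ran from −0.283 (without fl/fl UUO replicate 2) to −0.099 (without fl/fl UUO replicate 1) for sterol synthesis. For fatty acid synthesis they ran from −0.425 (without fl/fl UUO replicate 2) to −0.021 (without fl/fl UUO replicate 3), with −0.101 without fl/fl UUO LY2109761 replicate 4. No test of sterol against fatty acid synthesis was made, because the genes were chosen with earlier results known. With column totals the medians for obstruction were above 0 for sterol synthesis (0.184 in fl/fl and 0.236 in tKO) and for fatty acid synthesis in fl/fl (0.311), but they stayed below the median of all genes, by 0.58 and 0.82 for sterol synthesis and by 0.45 and 1.06 for fatty acid synthesis.

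**Figure D5:**
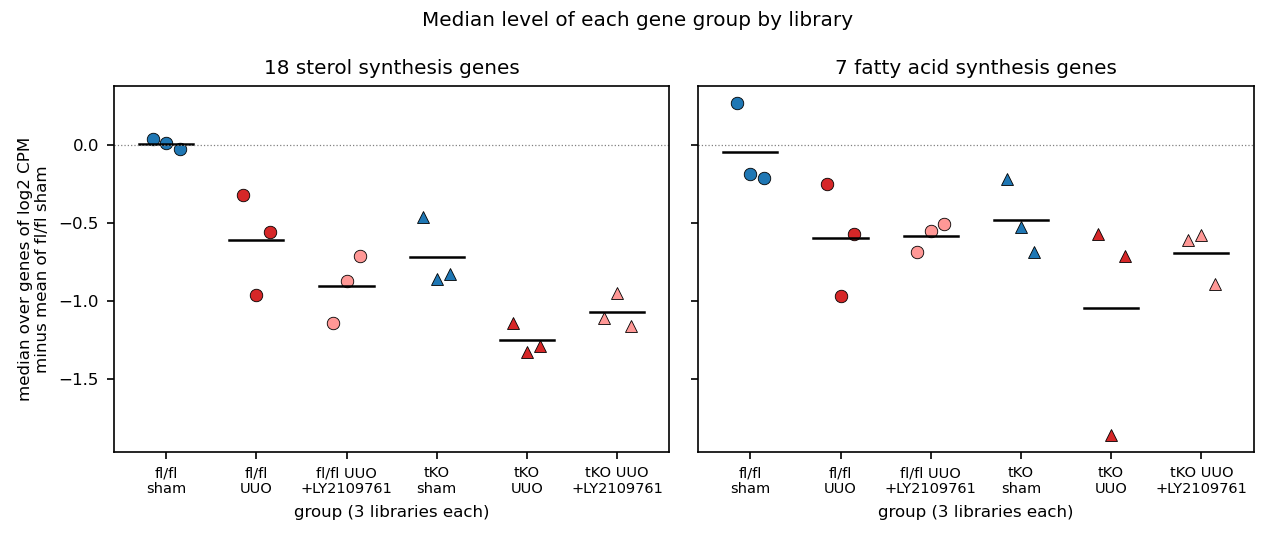
Median over the 18 sterol synthesis genes (left) and the 7 fatty acid synthesis genes (right) of log2 CPM minus the fl/fl sham mean, with a point for each library and a line at the mean of each group of 3. The sterol points run from 0.04 in fl/fl sham down to −1.33 in tKO UUO, and the fatty acid points are more spread, with 1 tKO UUO library at −1.86.

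Neighbouring pathways were read from 6 further lists, with TMM only. Column totals moved the median gene upward with obstruction. A fall smaller than that shift may therefore turn under that scaling, and the size of a rise may change. Of 16 further lipogenic genes 8 fell and 1 rose with obstruction in fl/fl, and 10 fell and 1 rose in tKO. Over all tested genes 18.7% were lower and 20.9% higher in fl/fl, and 19.4% and 21.6% in tKO. Acacb, the acetyl-CoA carboxylase of mitochondrial membranes, fell by 3.10 in fl/fl (SE 0.25, edgeR adjusted p = 3e-07), from 64.5 ± 11.2 to 7.54 ± 0.389 CPM. Acss2, which makes acetyl-CoA from acetate, fell by 1.78 (SE 0.16, edgeR adjusted p = 6.8e-07), and Aacs, which activates acetoacetate for lipid synthesis, by 2.18 (SE 0.26, edgeR adjusted p = 1e-05). In tKO sham 5 of the 16 were lower than in fl/fl sham, beside 6.57% of all tested genes, among them Fads1 and Fads2, desaturases of polyunsaturated fatty acids, at −1.16 and −1.26 (edgeR adjusted p = 0.0054 and 0.0023), and Aacs at −1.52 (edgeR adjusted p = 0.0047).

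Of 6 genes of LXR signalling and sterol efflux, 1 rose and 2 fell in fl/fl UUO, where 20.9% of all tested genes were higher and 18.7% lower. Abca1, the cholesterol exporter, rose from 28.8 ± 6.26 to 123 ± 36.9 CPM by 2.09 (SE 0.25, edgeR adjusted p = 9.4e-06), and the LXR genes Nr1h3 and Nr1h2 fell by 0.80 and 0.49 (edgeR adjusted p = 0.001 and 0.0091). In tKO sham Lpcat3, a phospholipid remodelling enzyme, and Nr1h3 were lower by 0.51 and 0.53 (edgeR adjusted p = 0.0124 and 0.0449), beside 6.57% of all tested genes lower. Of 8 genes of sterol uptake and storage, 2 rose and 1 fell in fl/fl UUO, which is near those shares over all genes. Scarb1, a lipoprotein receptor, rose by 1.15, Soat1, which esterifies cholesterol, rose by 0.54, and Vldlr, another lipoprotein receptor, fell by 0.44 (edgeR adjusted p = 0.00085, 0.038 and 0.0284). In tKO sham 2 of the 8 were lower, where 6.57% of all tested genes were lower. They were Npc2, a lysosomal cholesterol carrier, at −0.86 and Nceh1, a cholesterol ester hydrolase, at −0.66 (edgeR adjusted p = 0.0432 and 0.0468).

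Of 5 genes of SREBP processing and degradation, Rnf145, a sterol-responsive ubiquitin ligase, rose by 1.05 in fl/fl UUO (edgeR adjusted p = 4.1e-05). Of 7 genes of the non-sterol branches of the mevalonate pathway, 3 fell and 1 rose in fl/fl UUO, beside 18.7% and 20.9% of all tested genes, among them Pdss1, which builds the side chain of coenzyme Q, at −1.12, Coq2, a later step of it, at −0.45, and Fntb, a farnesyltransferase subunit, at 1.08 (edgeR adjusted p = 0.00097, 0.0054 and 0.0011). In tKO sham 1 of the 7, Fntb, was higher, by 0.73 (edgeR adjusted p = 0.0456), beside 5.76% of all tested genes higher. The 3 NADPH supply genes did not pass with obstruction in fl/fl, where Pgd and G6pdx, of the pentose phosphate pathway, were at 0.23 and 0.31 and Idh1, isocitrate dehydrogenase, at −0.13 (edgeR adjusted p = 0.1008, 0.1137 and 0.6887).

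The sum of 6 adrenal cortex markers was 2.33 to 6.83 CPM over all libraries. The whole-kidney experiment of the series compared 4 Pcmt1 KO with 4 WT libraries, and its deposited table lists 410 genes. It holds 2 of the 31 genes. Idi1 was at 7.59 ± 2.56 FPKM in KO and 4.01 ± 0.493 FPKM in WT, and Fdps at 5.70 ± 1.65 FPKM in KO and 3.36 ± 0.356 FPKM in WT (SD, n = 4). Both were higher in every KO than in every WT library. In the obstruction experiment Fdps was lower in tKO sham than in fl/fl sham. That call was lost in 5 of the fits that left out a library, and the counts of Fdps are uncertain, as given above. The experiments differ in the label of the knockout and in the measure, FPKM here and counts scaled by TMM there. Their values are therefore not directly comparable. No test was made, because how the 410 genes were chosen is not given in the sources used here. HK-2 is a line of human proximal tubule cells, and its table lists 379 genes and holds none of the 31.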

How the data were processed

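RNA-seq of mouse kidney was analysed in 18 libraries, in 6 groups of 3. The authors deposited raw read counts per gene and FPKM values, per the file headers. Reads were handled with HISAT2, StringTie and fastp (versions not given) on mm10 and hg38, per the submitters' processing notes. The counting settings, the build of the coordinates in the obstruction table and what tKO stands for are not given in the sources used here. Gene spans were therefore taken from the GENCODE annotation of GRCm38 by Ensembl identifier, and promoters from RefSeq.

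The 31 members and all gene lists were chosen with earlier results of these data known. Counts were fitted for all 6 groups in edgeR 4.0.16 (quasi-likelihood test, TMM, filterByExpr, 12 residual degrees of freedom; R 4.3.3, limma 3.58.1). Of 57180 genes 19256 were tested, and Benjamini-Hochberg adjustment over all of them used a threshold of 0.05. Fold changes are log2, and SE is the fold change over the square root of F. Members were given values in every library where they passed in a comparison and were among the 4 smallest p of their role in it. Of each further list, up to 3 genes with the smallest p in UUO against sham in fl/fl and in tKO against fl/fl sham were named. An item that this rule names is not reported here. The alternatives were other scalings, other low-count filters, DESeq2 1.42.0, fits of only the groups compared, a replicate block and leaving out each library. Methods were tested on simulated data. A term for sex was not run, since libraries of a group did not differ in it.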

Additional observations from a re-analysis of the deposited data

Results flagged for a closer look

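In 6 genes the effect of LY2109761 in obstructed kidneys differed between tKO and fl/fl by the test of the difference itself (edgeR, tKO minus fl/fl, log2). The differences were 2.30 for Fdft1 (adjusted p = 0.0111), 0.82 for Sc5d (adjusted p = 0.0077), 0.62 for Srebf2 (adjusted p = 0.0146), 0.81 for Insig2 (adjusted p = 0.0328), 0.97 for Stard4 (adjusted p = 0.0101) and 0.71 for Acly (adjusted p = 0.0299). Of all tested genes 7.05% were higher in the same test. Insig2 and Acly each lost the call in 8 of the fits that left out a library. Among these was the fit without fl/fl UUO LY2109761 replicate 3 (edgeR adjusted p = 0.0818 and 0.0619). With column totals 0 members were called, beside 164 higher of 19256 genes. With a replicate block 3 were called, beside 1128 higher of 18971.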

How the results depend on the processing

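With column totals 8 members were called for obstruction in fl/fl, 4 between genotypes in sham, 3 between genotypes in UUO, and 0 for LY2109761 in fl/fl and for the drug interaction. Over 19256 genes that scaling called 8547 higher and 906 lower for obstruction in fl/fl. It called 222 lower between genotypes in sham and 317 in UUO, 14 lower for LY2109761 in fl/fl and 164 higher for the interaction. The sterol medians became 0.184 (obstruction, fl/fl), 0.236 (obstruction, tKO), -0.925 (genotype, sham) and 0.294 (genotype by UUO), and the fatty acid medians for obstruction 0.311 and -0.002. Turned in direction were Srebf1 (0.27) and Scap (0.34) in fl/fl, and Lss (0.08), Tm7sf2 (0.01), Ebp (0.09), Scap (0.44), Stard4 (0.24), Acaca (0.43) and Elovl6 (0.17) in tKO. This scaling moved the median of all genes, as given above. DESeq2 called 1 member between genotypes with LY2109761, 3 for the drug in fl/fl, 2 for it in tKO and 1 for genotype by UUO. For the drug in fl/fl it called 931 higher and 1085 lower of 19323 genes. Its calls over all genes in the other comparisons are given above. For the drug in fl/fl, 2 were called without mitochondrially encoded genes, 0 with no low-count filter and 0 with only the groups compared. Over all genes these fits called 585, 207 and 34 lower. With only the groups compared 0 were called between genotypes in sham, beside 3 higher and 3 lower of 16526 genes. Leaving out single libraries gave 6 to 16 members between genotypes in sham, 8 to 17 in UUO, 0 to 2 for the drug in each genotype and 4 to 7 for the interaction. Over all genes 210 to 2358 were lower in these sham fits and 872 to 1618 in these UUO fits. The sterol medians then ran from -0.703 to -0.408 (obstruction, fl/fl), -0.967 to -0.538 (obstruction, tKO), -0.954 to -0.63 (genotype, sham) and -0.182 to 0.045 (genotype by UUO). The cause of these changes was not tested.

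The replicate numbers were also fitted as a replicate block. Over 19 pairs of libraries with the same number, the correlation of their deviations was -0.134 to 0.12 and exceeded 0.1 in 1 pair. Pairs with different numbers ran from -0.158 to 0.168. With 3 libraries per group these correlations cannot tell whether the numbers pair the samples. With the block 0 members were called between genotypes in sham, 1 in UUO, 0 for the drug in fl/fl (sterol median -0.38) and 3 for the interaction. Over all genes the block fits called 1 lower of 16526 in sham, 125 of 18306 in UUO and 0 of 17850 for the drug. For the interaction they called 1128 higher of 18971.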
